A study of Mus musculus with 6 samples.

Results

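The genes described here are the 139 whose measured mean level was at least 4-fold higher in megakaryocyte cultures that lack p45 than in wild-type cultures, out of 17329 genes with a usable probe. They were selected on the measured levels themselves. A gene was read on the brightest of its probes that were well above background on all 3 p45-/- arrays. It was kept where every p45-/- array lay above every WT array and the mean difference was 2 or more on the log2 scale, which is 4-fold. Globin genes and 4 named erythroid genes were left out by name. With the 5 such genes that met the other criteria, 144 of the 17329 genes did, which is 0.831%. Because the contrast between the groups chose these members, their differences are a description and no test is given for them. Of the 139 members, 95 have a gene symbol and 44 are known here only by a transcript or probe identifier.

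The p45-/- group held 3 cultures of primary megakaryocytes, grown from E13.5 fetal livers of C57BL/6 mice that lack p45, and the WT group held 3 such cultures from wild-type livers of the same strain and day. The series design states 3 independent experiments, without saying whether livers were pooled. The source field of the labels gives cultured megakaryocytes, whereas the extraction protocol speaks of whole embryos, and the labels do not settle this. Each culture was measured on a single-colour Agilent array. Levels are log2 processed signals minus the array's 75th percentile over non-control probes, so 0 is the level of a transcript brighter than about 75% of probes.

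p45, encoded by Nfe2, is the larger partner in the NF-E2 transcription factor. It pairs with a small Maf protein on DNA and switches on genes of the last steps of megakaryocyte maturation, including those for platelet release. Megakaryocytes share a progenitor with red cells, and GATA factors act in both lineages. Nfe2 itself read 4.87, 6.43 and 6.34 in p45-/- cultures and 5.24, 6.57 and 6.33 in WT cultures, replicates 1 to 3 in order. The groups overlapped, with a difference of -0.17 (SE 0.57, limma adjusted p = 0.923), so this probe did not separate the genotypes. No source used here says whether the deletion covers that probe, so it does not check the labels, and p45-/- is used below as the label the arrays carry. The sign of this difference turned under 5 of the alternative settings.

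The arrays were not alike, and this touches every value below. The signal at the 75th percentile ran from 135 to 589 over p45-/- arrays, lowest on array 1, and from 339 to 583 over WT arrays. The share of probes well above background was 61.6% to 64.8% over p45-/- arrays and 57.8% to 61.1% over WT arrays, so it was higher on every p45-/- array. Across genes, p45-/- array 1 correlated at 0.782 to 0.884 with the other arrays, which correlated with each other at 0.941 to 0.984. The lowest level that counted as well above background was -3.98 on p45-/- array 1, against -5.89 to -4.82 on the others, so the rule could not keep a gene below -3.98 on that array.

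A pair of neighbouring members had nearly the same promoter and nearly the same levels. Pramel37 and Pramel39 belong to a mouse gene family related to the human cancer-testis antigen PRAME, and they lie 232 kb apart on chromosome 5. Their promoter windows from RefSeq (GRCm38.p6, 250 bases before to 50 bases after the start, minus strand), at chr5:94070496-94070795 and chr5:94306747-94307046, are printed because the levels of the pair ran in parallel over the arrays. Capitals mark TGATAA, a core that GATA factors can bind, which lies after the start in both windows.
Pramel37: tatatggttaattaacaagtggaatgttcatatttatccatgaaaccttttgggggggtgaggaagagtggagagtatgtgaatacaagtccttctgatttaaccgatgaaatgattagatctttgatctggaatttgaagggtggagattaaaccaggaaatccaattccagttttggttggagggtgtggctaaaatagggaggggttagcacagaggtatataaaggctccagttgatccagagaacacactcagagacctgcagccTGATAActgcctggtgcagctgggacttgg
Pramel39: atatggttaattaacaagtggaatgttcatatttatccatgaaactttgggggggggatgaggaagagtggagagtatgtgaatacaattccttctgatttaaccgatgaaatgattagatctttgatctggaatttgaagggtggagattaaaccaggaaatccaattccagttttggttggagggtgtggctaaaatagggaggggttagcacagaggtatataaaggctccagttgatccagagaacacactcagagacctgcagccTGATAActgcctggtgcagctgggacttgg
The windows share 295 identical bases in a global alignment (98.0%), with 2 gap columns. TGATAA, searched on both strands, is held by 10.4% of all genes with a promoter in that table. The other motifs searched on both strands were absent from both windows. They were the GATA core AGATAA, held by 12.7% of genes in the table, and the GATA core AGATAG, held by 10.3%. For the NF-E2 site they were its AP-1-like core TGAGTCA, held by 5.95%, and its other side TGCTGAG, held by 8.93%. These are letter matches, not measured binding sites. A promoter was found for 70 of the 139 members, so shares over members leave out the rest. TGATAA was held by 11.4% of the 70, against 5.63% of genes with a promoter that were well above background on the p45-/- arrays. For AGATAA these shares were 7.14% and 8.45%, and for AGATAG 14.3% and 7.79%. For TGAGTCA they were 2.86% and 4.60%, and for TGCTGAG 8.57% and 8.47%. These differences were not tested.

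Pramel37 read 0.25, 2.69 and 2.87 in p45-/- cultures and -2.70, -1.79 and -0.76 in WT cultures. Pramel39 read 0.09, 2.75 and 2.91 in p45-/- cultures and -3.36, -1.54 and -0.53 in WT cultures. Replicate 1 was the lowest array of its group for both genes, in both groups. The mean differences were 3.69 and 3.73. Their transcripts were not compared here, but in a family this alike the probe of each may also read the other, so their values are uncertain as 2 separate members. Pramel4, a dimmer relative, read -2.01, -4.16 and -4.65 in p45-/- cultures and -4.66, -7.67 and -7.34 in WT cultures. Its groups were separated by only 0.01, and 1 of 3 WT arrays was well above background. Of the 15 Pramel genes on the array, a list added after the members were known, 7 were tested, and 6 of these were higher. The 3 members are higher by the rule, and of the 4 others 3 were higher, against 46.4% of all genes tested. A gene is tested where it is well above background on all arrays of either group. Those that enter through the p45-/- arrays alone are favoured to be higher, and several lists below hold such genes. Pramel48 and Pramel34 averaged 2.51 and 2.47 higher, but each was highest on p45-/- array 1 and its groups overlapped, so neither is a member.

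Tmem184a, a transmembrane protein gene, had both the largest difference of the members and the highest level. It read 1.36, 3.46 and 2.48 in p45-/- cultures and -2.10, -2.41 and -2.48 in WT cultures, a difference of 4.77, or 27.2-fold. Every p45-/- array lay at least 3.46 above every WT array. Gpr83, a G protein-coupled receptor, read 1.42, 1.99 and -0.08 in p45-/- cultures and -1.93, -3.56 and -3.05 in WT cultures, a difference of 3.95. Etl4 read -2.13, 1.82 and 1.10 in p45-/- cultures and -4.58, -3.32 and -2.90 in WT cultures, 2 of 3 well above background, a difference of 3.86. Fam163a read -2.21, 1.08 and -0.34 in p45-/- cultures and -4.47, -3.72 and -3.46 in WT cultures, a difference of 3.39. For Etl4 and Fam163a, p45-/- array 1 was the lowest of its group, and by the rule above every WT array.

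Other members with large differences were dimmer. Prr15l read -1.06, -5.08 and -2.80 in p45-/- cultures and -5.43, -7.77 and -7.94 in WT cultures, where no array was well above background. A fold against such a group is given as a lower bound. It compares the p45-/- mean with a WT mean in which each array counts at its own detection limit, the dimmest signal called well above background there, or at the probe's signal where that is brighter. By this bound Prr15l was at least 5.40-fold higher. Enthd1 read -2.12, -5.24 and -3.67 in p45-/- cultures and -5.99, -7.05 and -7.03 in WT cultures, at least 3.33-fold higher. Atp1b2, a sodium pump subunit, was detected on all arrays and read -2.27, -0.13 and -1.60 in p45-/- cultures and -4.23, -4.32 and -4.36 in WT cultures, a difference of 2.97. Its WT arrays lay within a narrow band. Mboat2, a lysophospholipid acyltransferase, read -0.96, -0.52 and -0.42 in p45-/- cultures and -2.62, -2.77 and -2.79 in WT cultures, a difference of 2.09. Of its family, 3 of 10 membrane-bound acyltransferases tested were higher, Mboat2 among them by the rule.

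**Figure D1:**
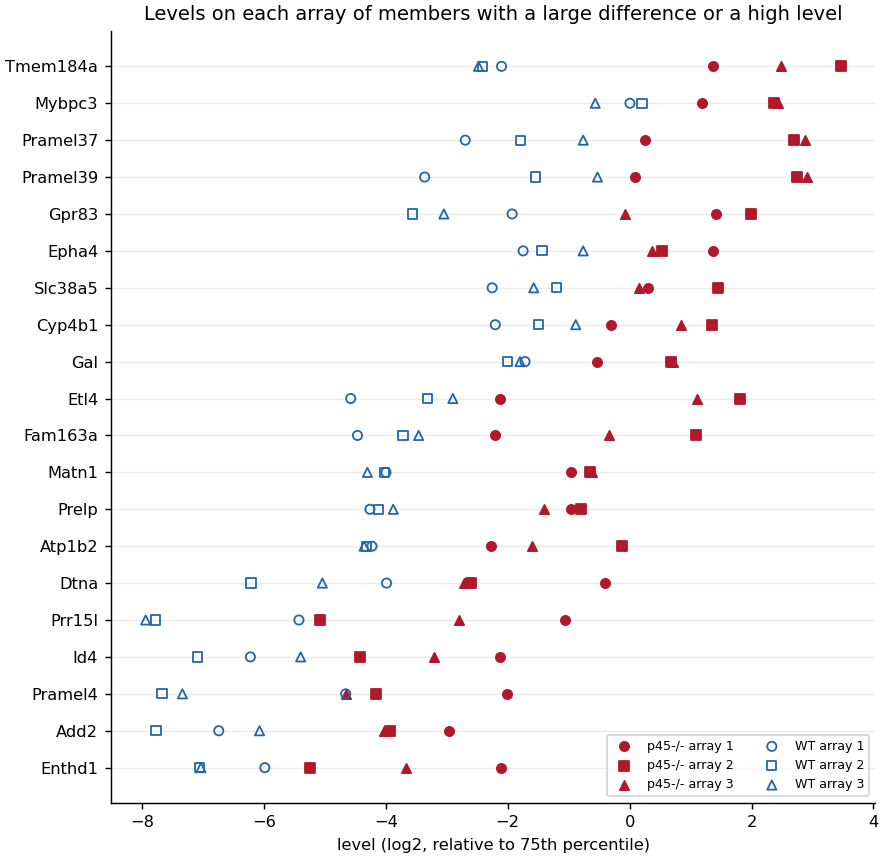
Level of each named member on every array, log2 relative to the array's 75th percentile, for the 15 members with a symbol with the largest difference and the 10 with the highest p45-/- level (filled red, p45-/-; open blue, WT; symbol shape, replicate number). The filled symbols lie to the right of the open ones in every row, by the rule. The groups are 3.46 apart for Tmem184a, 3.03 for Matn1 and 2.47 for Prelp, and 0.01 apart for Pramel4.

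Among the matrix members, Matn1 and Prelp varied little within each group. Matn1, a cartilage matrilin, read -0.97, -0.65 and -0.61 in p45-/- cultures and -4.00, -4.03 and -4.30 in WT cultures, a difference of 3.37. Prelp, a small leucine-rich proteoglycan, read -0.96, -0.79 and -1.41 in p45-/- cultures and -4.26, -4.12 and -3.88 in WT cultures, a difference of 3.03. All 6 arrays held these transcripts well above background, and the gap between the groups was 3.03 for Matn1 and 2.47 for Prelp. Col8a1, a short-chain collagen, was 2.13 higher, Vwa1 2.48 with 1 of 3 WT arrays well above background, and Hs6st2, a heparan sulfate sulfotransferase, 2.00. Fras1 and Chst8, with no WT array well above background, were at least 2.35-fold and at least 2.07-fold higher. Of the 19 cartilage genes listed, 11 were tested, 10 were higher (6 under quantile normalization), with a median difference of 0.53 against -0.05 for all genes tested. Apart from Matn1 itself, 1 of the 10 others had every p45-/- array above every WT array, as had 4.77% of all genes tested, and 1 had every p45-/- array below. Matn2, which is not a member, was 1.44 higher (SE 0.39, limma adjusted p = 0.576).

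Among signalling and guidance members, Efna5, Epha4 and Gdf3 were well above background on all 6 arrays. Efna5, an ephrin ligand, read -0.40, -0.33 and -0.03 in p45-/- cultures and -2.34, -2.99 and -2.38 in WT cultures, a difference of 2.32. Epha4, an ephrin receptor, read 1.37, 0.54 and 0.37 in p45-/- cultures and -1.75, -1.44 and -0.76 in WT cultures, a difference of 2.07. Of the 12 ephrin and Eph genes tested, 11 were higher, with a median difference of 1.01. Among the 10 that are not members, 9 were higher and 3 did not overlap with p45-/- above (30.0%, against 4.77% of all genes), with a median of 0.95. Ephb4, not a member, was 0.96 higher (SE 0.32, limma adjusted p = 0.704). Gdf3, a TGF-beta family ligand, read -1.88, -1.84 and -1.71 in p45-/- cultures and -3.69, -3.97 and -4.15 in WT cultures, a difference of 2.13. Gdf10, another such ligand, read -2.93, -2.54 and -3.44 in p45-/- cultures and -4.99, -5.55 and -4.83 in WT cultures, a difference of 2.15, but only 1 of 3 WT arrays held it well above background. Of the 15 ligands of that family tested, 12 were higher, and the median was 0.76 (0.31 under quantile normalization). With p45-/- above, 3 did not overlap, of which 2 are members and do so by the rule. With p45-/- below, 1 did not overlap. Among the 13 that are not members, 1 did not overlap in each direction, and the median was 0.51. With p45-/- above this was 7.69%, near the 4.77% of all genes. The share of all genes with p45-/- below was 8.44%.

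Wnt and BMP signalling contributed Id4, an inhibitor of helix-loop-helix factors, Grem1, a secreted BMP antagonist, Wnt4, a Wnt ligand, and Nkd2, an intracellular Wnt inhibitor. Id4 read -2.12, -4.42 and -3.20 in p45-/- cultures and -6.22, -7.10 and -5.40 in WT cultures, at least 4.14-fold higher. Grem1 was at least 2.85-fold higher, and neither was well above background on any WT array. Wnt4 was 2.02 higher and Nkd2 2.57, with 1 and 2 WT arrays well above background. In a list of Wnt and BMP feedback genes written after the members were known, 17 of 20 tested genes were higher. Setting aside its 4 members, which do not overlap by the rule, 13 of 16 were higher and 1 (6.25%) did not overlap, near the 4.77% of all genes, with a median of 0.74. Some of the 16 were tested through the p45-/- arrays alone, which favours higher genes.

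Muscle genes formed another set. Mybpc3, cardiac myosin-binding protein C, read 1.18, 2.38 and 2.44 in p45-/- cultures and 0.01, 0.20 and -0.56 in WT cultures, a difference of 2.12, and had the highest WT level of the members. Myom2, an M-band protein of the sarcomere, read -1.29, -0.02 and -0.42 in p45-/- cultures and -4.13, -2.55 and -2.22 in WT cultures, a difference of 2.39. Nexn, an actin-binding protein, was 2.07 higher, and Cacna1s, a skeletal muscle calcium channel subunit, 2.09 with 1 of 3 WT arrays well above background. Sgca, a dystrophin complex protein, and Smtnl1 had no WT array well above background, with bounds of at least 4.70-fold and at least 2.19-fold higher. Dtna, another dystrophin-complex protein, read -0.40, -2.60 and -2.71 in p45-/- cultures and -3.99, -6.21 and -5.04 in WT cultures, 2 of 3 well above background, a difference of 3.18. In a list of muscle genes written after the members were known, 24 of 27 tested genes were higher. Setting aside its 6 members, 18 of 21 were higher, with a median of 0.81. Of these 21, 6 did not overlap with p45-/- above (28.6%, against 4.77% of all genes) and 1 with p45-/- below (against 8.44% of all genes). Acta1, skeletal alpha-actin and not a member, was 1.40 higher (SE 0.31, limma adjusted p = 0.434).

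Members tied to red cells were Rhd, a blood group antigen of the membrane, Ermap, another erythroid membrane protein, Dmtn and Add2, both of the membrane skeleton. Rhd read 1.11, -1.63 and -1.67 in p45-/- cultures and -1.86, -3.61 and -4.37 in WT cultures, a difference of 2.55. Ermap read -0.91, -2.68 and -3.05 in p45-/- cultures and -3.32, -5.32 and -5.13 in WT cultures, 2 of 3 well above background, a difference of 2.38. p45-/- array 1 was the highest p45-/- array for all 4 genes. Dmtn was 2.09 higher. Add2 read -2.97, -3.93 and -4.03 in p45-/- cultures and -6.74, -7.77 and -6.07 in WT cultures, with no WT array well above background, and was at least 3.41-fold higher. Of 32 erythroid markers tested, 27 were higher, with a median of 1.16. Setting aside the 7 that met the rule, which are 2 members and the 5 genes left out by name, 20 of 25 were higher and 6 did not overlap with p45-/- above (24.0%, against 4.77% of all genes), with a median of 0.74. The sums that follow are linear levels in multiples of the 75th percentile. Over all 32 markers, with globin genes and those that met the rule included, the sum was 705 to 2351 over p45-/- arrays. Over WT arrays it was 560 to 953.

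Markers of other cells that these cultures could hold also differed between the groups in value, though limma without a block called none of the listed genes. With the replicate block it called 3 megakaryocyte markers, all lower, and no marker of another cell type. All 15 hepatocyte markers tested were higher, against 46.4% of all genes tested, with a median of 0.95. Their summed level was 66.1 to 229 over p45-/- arrays and 49.0 to 88.3 over WT arrays. Their medians by replicate number were -0.17, 1.70 and 1.86. The liver and kidney members included Uox (urate oxidase, at least 4.71-fold higher), Abcb11 (the bile salt export pump, at least 2.25-fold) and Slco1b2 (a liver uptake transporter, at least 3.57-fold). Cth, of cysteine synthesis, was 2.05 higher. Nat8, an acetyltransferase, read -2.86, -1.75 and -2.49 in p45-/- cultures and -4.68, -5.18 and -5.07 in WT cultures, a difference of 2.61, with 1 of 3 WT arrays well above background. Cyp4b1, a cytochrome P450, read -0.31, 1.36 and 0.85 in p45-/- cultures and -2.20, -1.50 and -0.88 in WT cultures, a difference of 2.16. For both genes p45-/- array 1 was the lowest of its group. Of 15 stromal markers 13 were higher, with a median of 0.49 and a summed level of 96.6 to 153 over p45-/- arrays and 104 to 164 over WT arrays. Their medians by replicate number were -0.79, 1.03 and 1.65. Median scaling, which lowers all genes alike, put their median at -0.026, but relative to the median of all genes it was 0.53 under both scalings. All 11 neutrophil markers tested were lower, with a median of -0.86. Of these 11, 5 did not overlap with p45-/- below, as did 8.44% of all genes. Their summed level was 540 to 1046 over p45-/- arrays and 708 to 1284 over WT arrays. Of 9 mast cell and basophil markers 6 were lower, with a median of -0.79 and a summed level of 5.03 to 19.1 over p45-/- arrays and 13.3 to 32.5 over WT arrays. Endothelial, macrophage and lymphoid markers had medians of 0.29, 0.089 and 0.58, and Cd163, Cd79a and Rag1 were not well above background on any array. As a set, megakaryocyte markers were present in both groups, with a summed level of 1014 to 2164 over p45-/- arrays and 1303 to 2465 over WT arrays. Of the 21 tested, 19 were lower, and 5 did not overlap with p45-/- below, as did 8.44% of all genes. Not every one of the 21 was well above background on the p45-/- arrays. A difference in the share of a cell type and one in transcript per cell cannot be told apart in these cultures. The part of these cells in the members' differences was not tested.

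**Figure D2:**
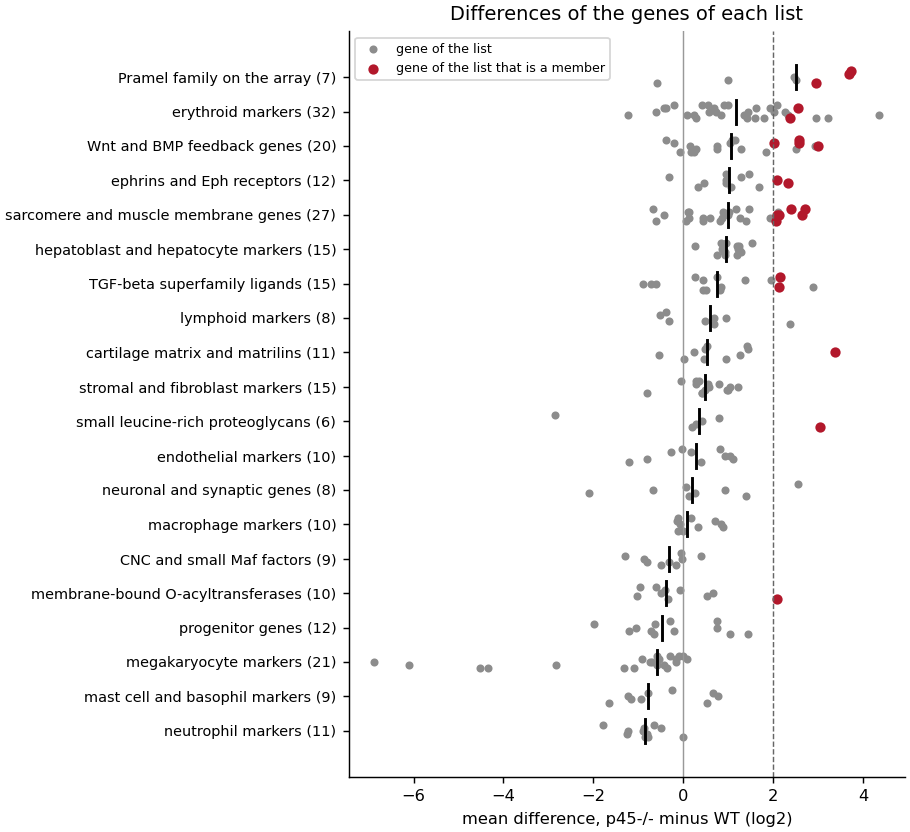
Mean difference, p45-/- minus WT (log2), of each tested gene in 20 of the 21 lists with at least 6 tested genes, with the number tested in brackets, the members in red and each list's median as a bar. Erythroid markers centre on 1.16 and hepatocyte markers on 0.95, while megakaryocyte markers centre on -0.58. The dashed line is the threshold of 2.

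Transcription factors and cofactors were 8 of the members. Tbx2, a T-box repressor, read -0.30, 0.26 and -0.46 in p45-/- cultures and -1.82, -3.10 and -2.25 in WT cultures, a difference of 2.22. Runx1t1, a corepressor, read 1.29, -2.25 and -1.88 in p45-/- cultures and -2.31, -3.98 and -3.21 in WT cultures, a difference of 2.22. Foxc2, Hoxb9, Ebf1 and Ebf3 were 2.03 to 2.44 higher in measured level, but Foxc2 and Ebf1 were well above background on 2 of 3 WT arrays and Hoxb9 and Ebf3 on 1. Tcf21 and Vgll3 had no WT array well above background and were at least 4.41-fold and at least 4.50-fold higher. For 7 of the 8, p45-/- array 1 was the highest of its group. Without replicate 1 of both groups, only 2 of the 8 kept a difference of 2 or more, and Ebf1 was 0.86 higher. The 12 receptor, channel and transporter members differed from this, as all 12 kept a difference of 2 or more without replicate 1. Among these, Slc38a5, an amino acid transporter, read 0.30, 1.45 and 0.15 in p45-/- cultures and -2.26, -1.20 and -1.57 in WT cultures, a difference of 2.31. Gal, the neuropeptide galanin, read -0.54, 0.68 and 0.71 in p45-/- cultures and -1.72, -2.00 and -1.80 in WT cultures, a difference of 2.12.

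As a set, the members were dim. Their mean level had a median of -2.69 in p45-/- cultures and -5.21 in WT cultures, against -0.19 and -0.15 over all 17329 genes. Only 12 of the 139 averaged above 0 in p45-/- cultures (8.63%), against 47.6% of all genes. Of the members, 49 (35.3%) were well above background on all 3 WT arrays, against 90.2% of all genes, and 47 (33.8%) on none. For these 47 the lower bound of the fold ran from 1.39 to 10.97, with a median of 3.09, and it reached 4 for 13. Under normexp background correction, which adds an offset that weighs most on dim probes, 8 genes met the rule, 7 of them members, and the median difference of the 139 was 1.11.

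**Figure D3:**
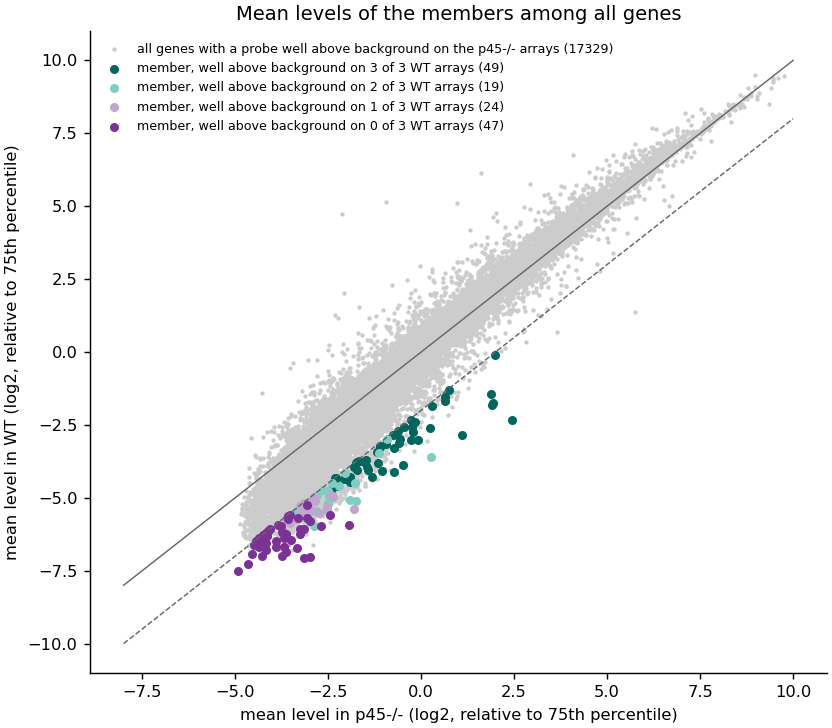
Mean level in p45-/- cultures (horizontal) and in WT cultures (vertical), log2 relative to the 75th percentile, of all 17329 genes (grey) and the 139 members, coloured by the number of WT arrays on which they were well above background; the dashed line is a difference of 2. The 47 members with no such WT array lie at the bottom left, among the dim genes.

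p45-/- array 1 was often the one furthest above WT. It was the highest p45-/- array for 99 members (71.2%), against 35.9% of all genes. It lay at least 2 above each of the other p45-/- arrays for 44 (31.7%), against 13.1%. The median difference of the members was 2.90, 2.63 and 1.81 for replicates 1, 2 and 3, against -0.36, 0.13 and 0.07 over all genes. Only 30 members reached 2 in every replicate. Without replicate 1 of both groups, the median was 2.21, and 84 of the 139 kept a difference of 2 or more. Wfdc3, a protease inhibitor family gene, was 2.26 higher with it and 0.99 higher without. Replicate 3 alone lay on slide 1, where the median was 1.81, and on slide 2 it was 2.76. The part of array 1 in the selection was not tested.

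**Figure D4:**
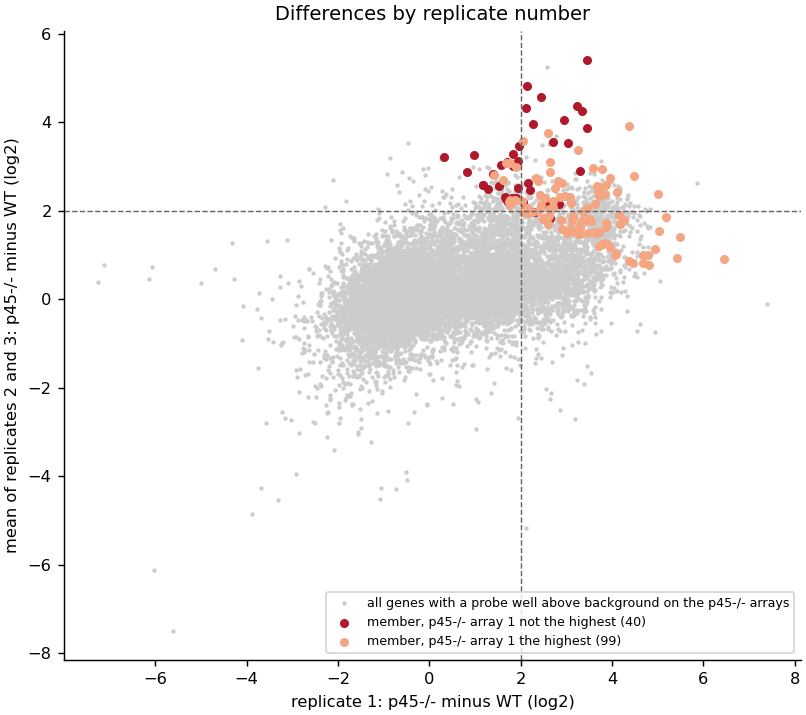
Difference, p45-/- minus WT (log2), in replicate 1 (horizontal) against the mean of replicates 2 and 3 (vertical), for all genes (grey) and the 139 members, split by whether p45-/- array 1 was the highest of its group (99) or not (40). Dashed lines mark 2; 84 members lie on or above the horizontal one.

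Hs6st2, Trim15 and 4930465K10Rik had the smallest differences inside the threshold, at 4.01-fold, at least 2.23-fold and at least 2.44-fold. The unnamed NAP019282-001, at 3.98-fold, Rnf227, at least 2.61-fold, and Shroom2, at least 1.90-fold, were nearest outside. For 11 members another probe was well above background on all p45-/- arrays, a filter that favours probes higher in p45-/-. All 11 were higher on it, and Dtna and Mboat2 also met the rule there. Probes that failed that filter are not in this count, among them a brighter one of Pard6b. For Ddah1, Efna5, Gnal, Hoxb9 and Kcnj8 the groups overlapped on the other probe that was counted. Across all 18200 genes tested, limma without a block called 0 genes in either direction (0% higher and 0% lower at adjusted p 0.05), with 477 higher and 606 lower at an unadjusted p below 0.05. With the replicate number as a block it called 0 higher and 5 lower (0.0275%). By the rule no lower gene can be a member. Of all genes, 869 (4.77%) had every p45-/- array above every WT array and 1536 (8.44%) every one below.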

How the data were processed

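The scanner files come from Agilent Feature Extraction 10.7.3.1, per the file headers, and the submitters' processing notes give 10.1. The deposited processed intensity is background-subtracted by the authors' software and linear, with no scaling across arrays. The authors' deposited value table differs from it by at most 0.497%.

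From these, control spots were left out, outlier spots (32 to 80 per array) set to missing, spots of a probe averaged, log2 taken, and each array's 75th percentile subtracted. Symbols came from RefSeq accessions matched to a GRCm38.p6 gene table: 26690 of 41174 probes have one. The brightest passing probe represents a gene. Pard6b has a brighter probe in the wider set of genes tested. Genes were compared with limma 3.58.1 in R 4.3.3 (lmFit, eBayes, Benjamini-Hochberg, two-sided, threshold 0.05), on 18200 genes well above background on all arrays of either group, and the code was tested on simulated data. The smallest p of an exact permutation test at this size is 0.1.

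The members and lists were chosen with earlier results of these data known. Values on every array are given for the 15 members with a symbol with the largest difference, the 10 with the highest p45-/- level, list members and a few others chosen after their values were seen. From each fixed list at most 4 further genes with the smallest p may be named. There were 21 fixed lists and 3 added later. The groups of members by function were formed after their names were known. Summed levels are linear. Some items that the naming rule covers are not reported here.

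Deviations of same-numbered arrays correlated at 0.647, 0.589 and 0.271, all above the limit of 0.1. On that basis same-numbered cultures were paired in the replicate block and in the differences by replicate number, a pairing that no label states. The rule used no pairing, and the SE and adjusted p given for single genes come from limma without a block. p45-/- array 3 correlated at 0.616 with WT array 2. Slide 1 held both replicates numbered 3, and slide 2 the other 4 arrays. The extraction software marked 1 quality metric of WT array 2 as out of range, and no spot was saturated. Normexp used the median signal with an offset of 50. Whether the replicates are separate animals or pools is not stated, so p-values measure the spread between these samples. The number of arrays limits the precision.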

Additional observations from a re-analysis of the deposited data

How the results depend on the processing

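The number of members depended on the settings. By the same rule there were 77 members under quantile normalization (62 of the 139), 60 under median scaling (49) and 8 under normexp (7), which adds an offset to dim signals. There were 274 with no filter on dim probes, 49 where all 6 arrays had to be well above background, 483 at a threshold of 1 and 22 at 3. A replicate block, which asks only that every pair be higher and the mean difference be 2 or more, gave 757 members, a slide block 270 and slide 2 alone 469. Leaving out 1 array gave 102 to 1269 members. The highest, 1269, came without WT replicate 1, 453 without p45-/- replicate 3 and 239 without p45-/- replicate 2. Without replicate 1 of both groups there were 424, of which 84 were among the 139. The median difference of the members, 2.37, became 1.11 under normexp and 1.93 to 2.74 with 1 array left out. Of single-member values on the probe the rule chose, 2785 moved by less than the replicate SD, 181 by more, and none changed sign. The rule puts every p45-/- array above every WT array. Leaving out or weighting arrays, or using a single slide, therefore could not change a sign. The block settings kept the unblocked difference, so those values could not move. Pard6b was fitted in limma on another, brighter probe, which read -0.26 under quantile normalization, -0.21 under median scaling and -0.075 without WT replicate 1.

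limma called 0 genes in each direction. Higher calls became 261 with array weights and 4 without replicate 1 of both groups, all 4 of them members (Adgrg2, Matn1 and the unnamed ENSMUST00000111254 and XM_001476885), which is no support for them, since the rule chose them on these arrays. Lower calls became 247 with array weights, 10 under median scaling, 5 with the replicate block and 14 without replicate 1 of both groups. With 1 array left out, higher calls were 0 and lower calls 0 to 1, the 1 without WT replicate 1. The Nfe2 difference, -0.17, ran from -0.57 to 0.34 with 1 array left out. It reversed to 0.022 with array weights, 0.17 under quantile normalization, 0.0041 within slide 1, 0.34 without p45-/- replicate 1 and 0.090 without WT replicate 2. Median scaling moved the median of all genes to -0.56, where it had been -0.05. Under it the stromal median was -0.026 and the cartilage median 0.021, with 0.65 for erythroid and 0.44 for hepatocyte markers. The causes were not tested. normexp on the mean signal was not run, and the percentile over spots was chosen after seeing the data, as was normexp on the median signal.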
